A study of Homo sapiens with 18 samples.

Results

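The 10 genes described here are negative regulators of the ERK pathway and its sister kinase pathways, and PHLDA1, whose mRNA follows ERK activity. The regulators are the MAP kinase phosphatases DUSP1, DUSP4, DUSP5, DUSP6 and DUSP10, the Sprouty genes SPRY2 and SPRY4, and Sprouty-related SPRED1 and SPRED2. All 10 genes were chosen by name, with earlier results of these data known. They were among the 17252 genes listed in all 3 tables of knockout against wild type (WT). RNA was sequenced from MCF10A, an immortalised human mammary epithelial line, and from clones of it in which CRISPR-Cas9 had disrupted CBFB or RUNX1. RUNX1 is a DNA-binding transcription factor and CBFB its partner, which does not bind DNA itself. The CBFB knockout (CBFB KO) and the WT of its experiment had 3 samples each. The RUNX1 experiment had 4 samples of WT and of each of its knockouts, KO1 and KO2. CBFB KO was 1 clone and KO1 and KO2 were 1 clone each, so the clone and the knocked-out gene cannot be told apart within a comparison. All groups were untreated cells under 30 passages old, kept in medium with horse serum, insulin, hydrocortisone, cholera toxin and EGF, the ligand of the receptor that drives ERK in these cells. KO1 and KO2 have their WT libraries in common.

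Growth factor receptors activate ERK through RAS, RAF and MEK, and active ERK in turn raises the transcription of genes that dampen the pathway. The dual-specificity phosphatases remove the activating phosphates from MAP kinases, Sprouty proteins act between the receptor and RAS or RAF, and SPRED proteins bring neurofibromin to RAS. The mRNA levels of DUSP6, SPRY2, SPRY4 and PHLDA1 are widely read as a gauge of ERK output, although none of them is set by ERK alone.

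Promoter windows from 250 bases before to 50 bases after an annotated gene start were read from RefSeq (GRCh38.p14) for 8 of the 10 genes, and no sequence is given for DUSP4 and DUSP5. They are shown for 5 genes: SPRY4, the gene that rose in every knockout; SPRY2, its paralog, which fell in KO1; DUSP1 and PHLDA1; and SPRED2, whose second window is the only one of the 8 genes' windows with the RUNX letters TGTGGT. Capitals mark matches, on either strand, to the RUNX letters TGTGGT or TGCGGT, the ETS letters CCGGAA, the AP-1 letters TGANTCA and the cyclic AMP response element TGACGTCA. For SPRY2, the first of 3 annotated windows is shown.
SPRY4, chr5:142324198-142324497 (-): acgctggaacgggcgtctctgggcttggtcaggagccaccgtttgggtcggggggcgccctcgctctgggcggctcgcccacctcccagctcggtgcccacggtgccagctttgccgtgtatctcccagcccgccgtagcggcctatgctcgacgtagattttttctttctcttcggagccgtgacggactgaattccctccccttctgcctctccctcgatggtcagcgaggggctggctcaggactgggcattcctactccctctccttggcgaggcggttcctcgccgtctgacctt
SPRY2, chr13:80341077-80341376 (-): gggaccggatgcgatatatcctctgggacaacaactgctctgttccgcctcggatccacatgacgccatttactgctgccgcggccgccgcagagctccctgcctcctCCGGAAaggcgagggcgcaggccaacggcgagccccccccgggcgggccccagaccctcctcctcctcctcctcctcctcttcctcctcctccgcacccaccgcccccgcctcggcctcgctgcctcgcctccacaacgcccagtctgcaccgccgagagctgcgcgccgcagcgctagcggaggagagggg
DUSP1, chr5:172771146-172771445 (-): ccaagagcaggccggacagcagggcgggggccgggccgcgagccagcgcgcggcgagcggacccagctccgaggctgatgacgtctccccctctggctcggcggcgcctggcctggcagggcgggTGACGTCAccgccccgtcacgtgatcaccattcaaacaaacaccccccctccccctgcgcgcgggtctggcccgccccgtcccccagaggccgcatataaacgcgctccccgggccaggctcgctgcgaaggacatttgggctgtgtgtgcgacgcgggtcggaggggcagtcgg
PHLDA1, chr12:76031727-76032026 (-): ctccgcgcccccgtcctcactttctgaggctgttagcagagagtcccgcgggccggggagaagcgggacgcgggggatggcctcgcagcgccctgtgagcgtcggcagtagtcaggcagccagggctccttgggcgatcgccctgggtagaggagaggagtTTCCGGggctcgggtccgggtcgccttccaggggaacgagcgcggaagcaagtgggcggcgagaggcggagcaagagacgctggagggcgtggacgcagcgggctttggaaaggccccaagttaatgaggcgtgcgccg
SPRED2, chr2:65366729-65367028 (-): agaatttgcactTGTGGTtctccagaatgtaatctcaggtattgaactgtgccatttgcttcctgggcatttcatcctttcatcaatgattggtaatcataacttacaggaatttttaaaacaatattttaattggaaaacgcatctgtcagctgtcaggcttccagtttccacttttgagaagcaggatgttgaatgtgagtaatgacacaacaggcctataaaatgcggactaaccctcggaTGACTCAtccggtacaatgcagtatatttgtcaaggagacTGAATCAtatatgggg
The SPRY4 window held none of these letters. The SPRY2 and PHLDA1 windows each held the ETS letters, which 17.2% of all 35116 RefSeq windows of that length held. In the DUSP1 window the cyclic AMP response element started 125 bases before the gene start, and 1.85% of all windows held it. The SPRED2 window held TGTGGT, found in 13.1% of all windows, and the AP-1 letters at 2 places, found in 7.71%. TGCGGT, in 7.29% of all windows, was in no window of the 8 genes. These matches describe the letters in the window, and no binding was measured here.

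The labels were checked on the targeted genes first. In CBFB KO the mRNA of CBFB was at -4.88 on the log2 scale relative to WT (SE 0.14, adjusted p = 1.39e-252). RUNX1 mRNA rose in the libraries labelled KO1 (0.54 on that scale, adjusted p = 1.45e-08) and KO2 (0.46, adjusted p = 0.00470), so mRNA does not check these labels, since a CRISPR-Cas9 lesion need not remove the transcript. The 10 basal epithelial markers fixed for MCF10A all had a mean of at least 100 wherever they were listed, and KRT14 was not listed in the KO2 table. Some of these markers changed too: 5 of 10 rose and 1 fell in CBFB KO, where 11.7% of all genes tested rose and 7.97% fell. For KO1 it was 7 of 10 up and 1 down, beside 19.7% and 19.9% of all genes. KO2 had 3 of 9 up, beside 8.76%. With a list this short, such counts are a description only. KRT14, a basal keratin, was 7.86-fold higher in CBFB KO and 7.73-fold higher in KO1. Of the 6 fibroblast markers COL1A1 rose (by at least 1.36 on the log2 scale) and DCN fell (by at least 1.06, at means of 6.66 to 7.34) in all 3 comparisons, and PDGFRA, at means of 466 to 633, passed in none. Of the rest, COL1A2 had a mean of 0.145 in the CBFB table, PDGFRB had means under 4 in each table, and COL3A1 was listed in none. The summed level of the fibroblast list was 813 in WT and 1043 in CBFB KO, 723 and 1016 for KO1, and 669 and 756 for KO2. Of the leukocyte markers, CD14 had means of 128 to 142 and log2 fold changes of 0.32, 0.22 and 0.50, none past the test, while PTPRC (0.463 in the CBFB table) and CD3E had means under 1 where listed. The endothelial markers were under 1 in every table. The part of these markers in the results was not tested, and in bulk RNA fewer cells of a type and less RNA per cell cannot be told apart. The deposited means summed to 20214423 (CBFB KO), 18050386 (KO1) and 16467400 (KO2) normalised reads, and log2 fold changes of genes expressed at 100 or more had a median SE of 0.12, 0.10 and 0.21, so KO2 was measured least precisely.

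For each gene the tables hold a mean, a log2 fold change with its SE, and the p-values, but nothing per library. Levels of WT and knockout were therefore derived from the mean and the fold change with equal group sizes, as normalised read counts, and whether single libraries of the groups overlap cannot be said. A gene was said to rise or fall where the adjusted p of the authors' deposited test, corrected over all genes of the table, was under 0.05.

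SPRY4 was the gene of the 10 that rose in all 3 knockouts. The share of all genes that did so is not given here, so this is a description only. In CBFB KO 4 of the 10 genes rose (DUSP5, SPRY4, PHLDA1 and DUSP6) and 1 fell (DUSP1), against 11.7% of all 14975 genes tested that rose and 7.97% that fell. In RUNX1 KO1 5 rose (SPRY4, DUSP10, DUSP6, PHLDA1 and DUSP4) and 1 fell (SPRY2), against 19.7% and 19.9% of 16394 genes. In RUNX1 KO2 only SPRY4 rose and none of the 10 fell in the deposited DESeq2 test, against 8.76% and 6.08% of 15636 genes, and SPRY4 was also the only one with an unadjusted p under 0.05. The 10 genes had a median log2 fold change of 0.37 (CBFB KO), 0.27 (KO1) and 0.09 (KO2), beside -0.01, 0.00 and 0.02 over all genes tested. Most changes were small. By the study's stricter rule, which also asks for a fold change of at least 2, 1 of the 10 genes was called, SPRY4 in KO1, against 2.98% (CBFB KO), 4.93% (KO1) and 5.48% (KO2) of all genes. The genes of the group thus did not move as one, since DUSP1 fell in CBFB KO and SPRY2 in KO1, where others rose. By sign alone, 7 of the 10 kept 1 sign in every knockout, 6 of them above 0 and SPRY2 below. DUSP1, SPRED1 and SPRED2 had both signs. The share of all genes with 1 sign throughout is not given here, so this count is a description only. KO1 and KO2 have WT libraries in common, and some signs rest on values near 0, such as DUSP4 in KO2 (0.02, SE 0.12).

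**Figure D1:**
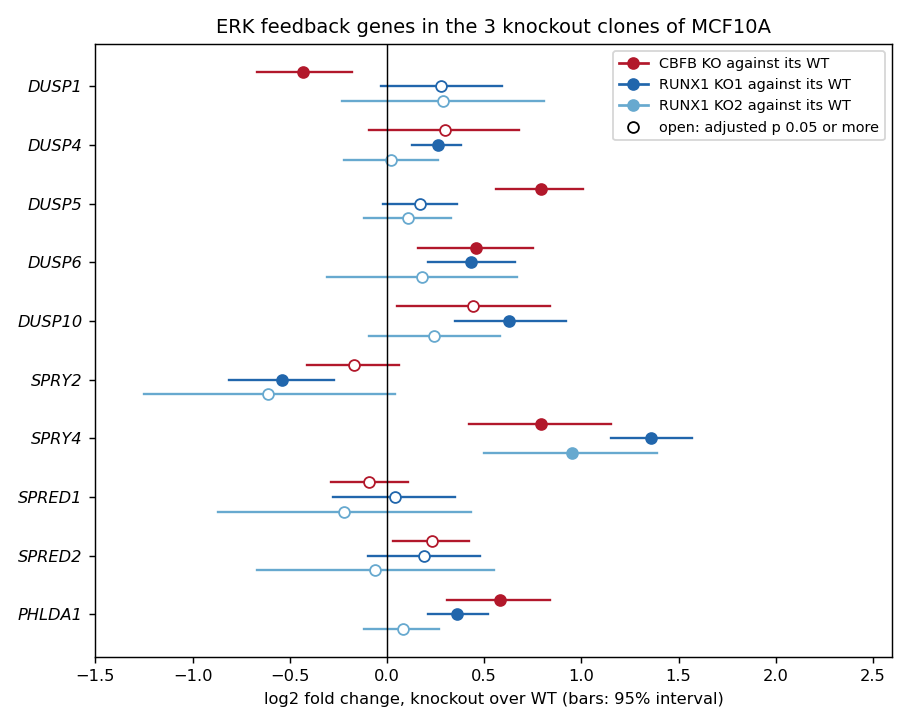
Log2 fold change of each of the 10 genes (x axis, knockout over WT, no unit) in CBFB KO, RUNX1 KO1 and RUNX1 KO2, with bars for the 95% interval and filled points for an adjusted p under 0.05. SPRY4 lies right of 0 in all 3 comparisons, SPRY2 left of 0, and DUSP5 and DUSP1 stand apart in CBFB KO.

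Among the genes compared per kb of their longest annotated transcript, DUSP1 had the highest level in WT of the CBFB experiment (1987 normalised reads per kb), followed by DUSP4 (574), DUSP6 (412) and PHLDA1 (398). SPRY4 (266), SPRED2 (222), DUSP5 (155), SPRY2 (143) and SPRED1 (102) came next, and DUSP10 was lowest at 41.1. Without values per library it cannot be said which neighbours in this order differ beyond their spread. DUSP1 was also the highest and DUSP10 the lowest per kb in WT of both RUNX1 tables, at 1638 and 34.3 (KO1 table) and 1554 and 31.7 (KO2 table).

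Of the 5 phosphatases of the group, DUSP5, a nuclear enzyme specific for ERK, had the largest change in CBFB KO. Its level was 396 normalised reads in WT and 682 in CBFB KO, which is 0.79 on the log2 scale (SE 0.11, adjusted p = 1.77e-10). In the RUNX1 experiment it went from 443 to 498 in KO1 (log2 fold change 0.17, SE 0.10, adjusted p = 0.164) and from 419 to 451 in KO2 (0.11, SE 0.11, adjusted p = 0.673). The rise in CBFB KO was larger than the change in either RUNX1 clone, by 0.62 on the log2 scale against KO1 (95% interval 0.33 to 0.91, adjusted p = 0.00159) and by 0.68 against KO2 (0.37 to 0.99, adjusted p = 0.00195), in a normal test of the difference of the deposited fold changes adjusted over all genes. In this test, 9.84% of all genes differed from KO1 and 2.90% from KO2. With the trend on transcript length and GC content removed, DUSP5 also passed in KO1, at 0.23 (adjusted p = 0.0445). The difference of CBFB KO from KO1 was then 0.46 (adjusted p = 0.0393) and that from KO2 0.68 (adjusted p = 0.00185). RefSeq lists 2 pseudogenes of DUSP5 that could share reads with it. Of these, DUSP5P1 had a mean of 19.9 in the CBFB table and lay at -0.58 on the log2 scale (SE 0.28, adjusted p = 0.141), and DUSP5P2 was not listed.

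DUSP1, an immediate-early phosphatase that acts on p38 and JNK as well as ERK, was the 1 of these 5 phosphatases that fell. Its level went from 4012 in WT to 2985 in CBFB KO, a fall by 0.43 on the log2 scale (SE 0.13, adjusted p = 0.00644). In KO1 it was 3306 in WT and 4019 in the clone (log2 fold change 0.28, SE 0.16, adjusted p = 0.150), and in KO2 3138 and 3829 (0.29, SE 0.26, 95% interval -0.23 to 0.81). CBFB KO thus lay below its WT, and both RUNX1 clones had point values above theirs that did not pass the test. The difference of CBFB KO from KO1 was -0.71 (95% interval -1.10 to -0.31, adjusted p = 0.0108), and that from KO2 was also -0.71 but with a wider interval (-1.29 to -0.14, adjusted p = 0.271). With the length and GC trend removed, DUSP1 passed in KO1 at 0.41 (adjusted p = 0.0295).

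DUSP6, the cytoplasmic phosphatase specific for ERK, rose in CBFB KO and KO1. It went from 1811 to 2483 in CBFB KO (log2 fold change 0.46, SE 0.15, adjusted p = 0.0162) and from 988 to 1331 in KO1 (0.43, SE 0.11, adjusted p = 8.17e-04). The difference between these changes was 0.02, with a 95% interval of -0.35 to 0.39. With the median of the 24 neighbouring genes subtracted, the KO1 value was 0.27 (adjusted p = 0.0440) and the difference 0.21. In KO2 it was 932 in WT and 1058 in the clone, or 0.18 on the log2 scale (SE 0.25, adjusted p = 0.764), with an interval of -0.31 to 0.67 that holds the values of the other knockouts.

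DUSP10, which prefers p38 and JNK as substrates and is the least abundant of the 10 genes, rose in KO1 from 91.8 to 143 (log2 fold change 0.63, SE 0.15, adjusted p = 8.87e-05). In CBFB KO it went from 110 to 149 (0.44, SE 0.20, adjusted p = 0.107), and it passed there only once the median of the 24 nearest expressed genes on the chromosome was subtracted (0.54, adjusted p = 0.0393). In KO2 the levels were 84.9 and 101 (0.24, SE 0.17, adjusted p = 0.434). DUSP4, a nuclear phosphatase induced by ERK, rose in KO1 from 2497 to 2985, a small change with a small error (0.26, SE 0.06, adjusted p = 2.45e-04) that came to 0.16 (adjusted p = 0.0360) with the length and GC trend removed. Its CBFB KO value was similar but less precise, from 3178 to 3901 (0.30, SE 0.20, adjusted p = 0.320), and in KO2 the levels were 2352 and 2380 (0.02, SE 0.12, adjusted p = 0.964).

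**Figure D2:**
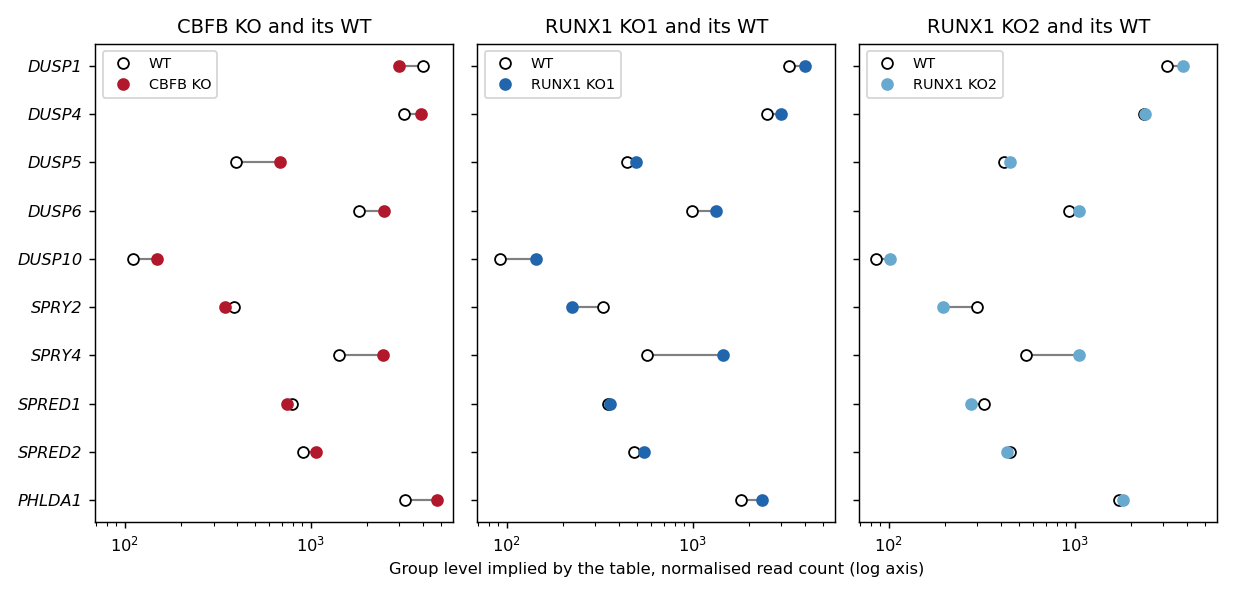
Levels of the 10 genes in WT (open points) and knockout (filled points) implied by each table, in normalised read counts on a log axis; the figure has no error bars because the tables hold no value per library. The longest steps from WT are those of SPRY4, up in each panel, and of DUSP5 in the CBFB panel, and the knockout point of SPRY2 lies left of its WT point in each panel.

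The Sprouty genes moved in opposite directions in KO1, where SPRY4 rose and SPRY2 fell. SPRY4 went from 1424 to 2455 normalised reads in CBFB KO, or 0.79 on the log2 scale (SE 0.19, adjusted p = 3.39e-04), which put it at rank 470 of 14975 genes ordered from the largest rise. In KO1 it went from 569 to 1462, a 2.57-fold rise (log2 fold change 1.36, SE 0.11, adjusted p = 3.30e-36) at rank 265 of 16394. In KO2 it went from 546 to 1053 (log2 fold change 0.95, SE 0.23, adjusted p = 4.95e-04), at rank 702 of 15636. The rise in CBFB KO was 0.58 below that in KO1 on the log2 scale, a difference that did not pass the adjusted threshold (95% interval -0.99 to -0.16, adjusted p = 0.0632), and it was 0.16 below that in KO2 (-0.74 to 0.41, adjusted p = 0.999). RefSeq has an antisense and an intronic transcript at SPRY4 (SPRY4-AS1 and SPRY4-IT1), which no table lists, and whether the counting used strand is not given in the sources used here, so their reads cannot be told apart from those of SPRY4.

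SPRY2, which like SPRY4 is an ERK-induced inhibitor of receptor signalling, fell in KO1 from 328 to 225 (log2 fold change -0.54, SE 0.14, adjusted p = 5.30e-04). In KO2 the value was as low but imprecise, from 299 to 196 (-0.61, SE 0.33, adjusted p = 0.249). In CBFB KO it went from 388 to 344 (-0.17, SE 0.12, adjusted p = 0.348). The difference between CBFB KO and KO1 was 0.37 (95% interval 0.01 to 0.73, adjusted p = 0.202). SPRY1, another Sprouty gene, named after its values were seen, had means of 65.2 to 73.9 and log2 fold changes of -0.20, 0.08 and 0.07, none past the test.

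SPRED1 and SPRED2 passed the test in no knockout. For SPRED1, mutated in Legius syndrome, the levels of WT and knockout were 795 and 748 (CBFB KO), 350 and 359 (KO1), and 324 and 278 (KO2). Its log2 fold changes were -0.09 (95% interval -0.29 to 0.11), 0.04 (-0.28 to 0.35) and -0.22 (-0.87 to 0.43). For SPRED2 the levels were 908 and 1062, 482 and 550, and 450 and 431, with log2 fold changes of 0.23 (0.03 to 0.42, adjusted p = 0.0911), 0.19 (-0.10 to 0.48) and -0.06 (-0.67 to 0.55). None of these 6 intervals held the rise of SPRY4 in the same knockout, and those of KO2 were the widest.

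PHLDA1, a pleckstrin homology-like protein whose mRNA follows ERK activity, rose in CBFB KO from 3215 to 4796 (log2 fold change 0.58, SE 0.13, adjusted p = 2.50e-04). In KO1 it rose from 1831 to 2357 (0.36, SE 0.08, adjusted p = 2.95e-05), and this value came to 0.22 with the length and GC trend removed (adjusted p = 0.0162) or with neighbours subtracted (adjusted p = 0.0166). In KO2 the levels were 1723 and 1817 (0.08, SE 0.10, adjusted p = 0.745). The KO2 interval of -0.12 to 0.27 held the value of neither other knockout. The difference of CBFB KO from KO2 was 0.50 (95% interval 0.17 to 0.83, adjusted p = 0.0840), short of the adjusted threshold. That of KO1 from KO2 was 0.29 (SE 0.13, unadjusted p = 0.0246, adjusted p = 0.912), and it came to 0.11 with the trend removed and 0.05 with neighbours subtracted. RefSeq also lists PHLDA1-AS1 and PHLDA1-DT beside this gene, and neither is in the tables.

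Between the RUNX1 clones, none of the 10 genes differed in the adjusted normal test, in which 0.141% of all 15562 genes did, and PHLDA1 was the only one with an unadjusted p under 0.05. The clones share WT libraries, so the SE used for this difference is too large and the test misses some differences. The interval of SPRY4 between the clones was -0.08 to 0.91 and that of DUSP10 -0.05 to 0.83, so differences of that size remain possible. Between CBFB KO and the RUNX1 clones, the experiment cannot be told apart from the gene that was disrupted.

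**Figure D3:**
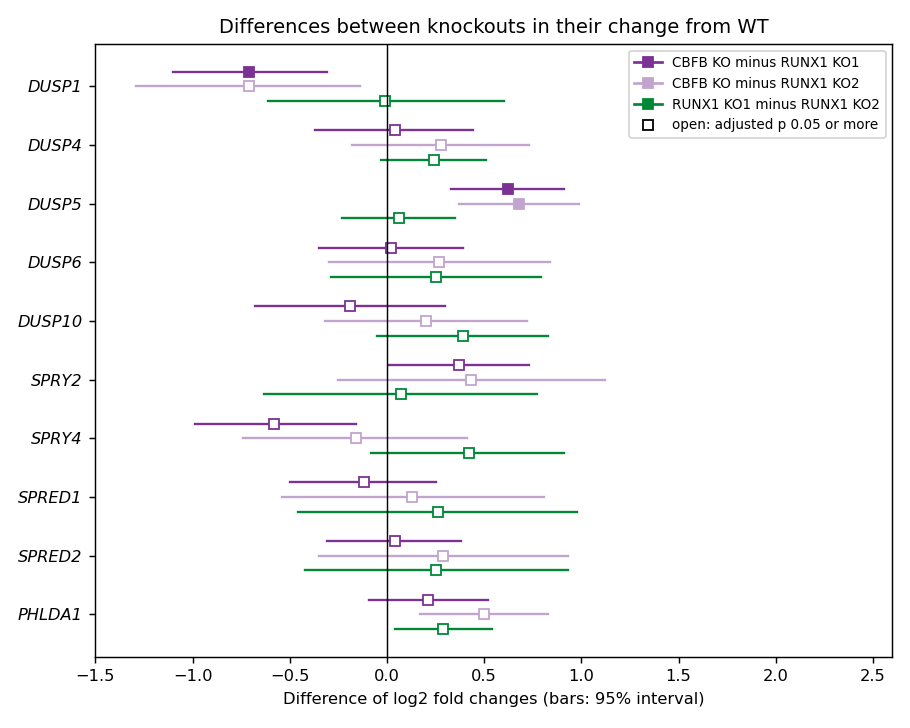
Difference between knockouts in the log2 fold change from WT for each of the 10 genes (x axis, no unit), with bars for the 95% interval and filled points for an adjusted p under 0.05. DUSP5 lies right of 0 for CBFB KO against both RUNX1 clones and DUSP1 left of 0, filled only against KO1.

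The implied levels of several of these genes were also unequal in the WT cells of the CBFB and RUNX1 experiments. Levels were taken per 1000000 of the summed implied WT levels of each table, and those of the RUNX1 experiment were taken from the KO1 comparison. SPRY4 was at 71.5 in WT of the CBFB experiment, 2.34-fold higher than the 30.6 in WT of the RUNX1 experiment. It lay above 98.4% of 10053 expressed genes in this ratio. From the KO2 comparison, the same WT libraries gave 33.4 for SPRY4, a log2 ratio of 1.10 beside 1.23. SPRED1 (39.9 and 18.8, 2.12-fold), SPRED2 (45.6 and 25.9, 1.76-fold), DUSP6 (91.0 and 53.1, 1.71-fold) and PHLDA1 (161 and 98.4, 1.64-fold) were also higher in WT of the CBFB experiment. DUSP4, DUSP1, DUSP10 and SPRY2 had ratios of 1.11 to 1.19, and DUSP5 was lower, at 0.834. In log2 terms the median of the 10 genes was 0.48 beside 0.12 for expressed genes, with 9 of 10 above 0 beside 61.2% of expressed genes. Over expressed genes, WT levels from the KO1 comparison had a median log2 ratio of -0.10 to those from the KO2 comparison. These medians and shares thus depend on which of the RUNX1 comparisons was used. EGFR, the receptor for the EGF in the medium, had 205 in WT of the CBFB experiment and 74.6 in WT of the RUNX1 experiment. The list of genes from the EGF receptor to ERK, of which EGFR was named after its values were seen, was shifted as well. Of its 19 expressed genes 15 were above 0, with a median of 0.59. Of the 10 genes, the 9 expressed by the same rule had 8 above 0 and a median of 0.71. Both medians still hold the trend on transcript length and GC content described next, and whether the 10 genes stand apart from that list was not tested. The tables were normalised separately and hold no value per library, so these ratios have no error and no test.

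The ratio of WT levels moved with gene properties over all expressed genes, with Spearman correlations across 9973 genes of 0.601 with transcript length and -0.488 with GC content; genes are not independent replicates. After this trend was removed, a step added after the data were seen, SPRY4 kept a log2 ratio of 1.09 (from 1.23) and lay above 99.0% of expressed genes. SPRED2 had 0.76, DUSP6 0.66 and SPRED1 0.64, the last down from 1.09, while PHLDA1 went from 0.71 to 0.37 and DUSP1 from 0.18 to 0.48. The ratios of SPRY4, SPRED2 and DUSP6 were thus nearly as large without the trend, and what else differed between the WT cells was not tested.

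**Figure D4:**
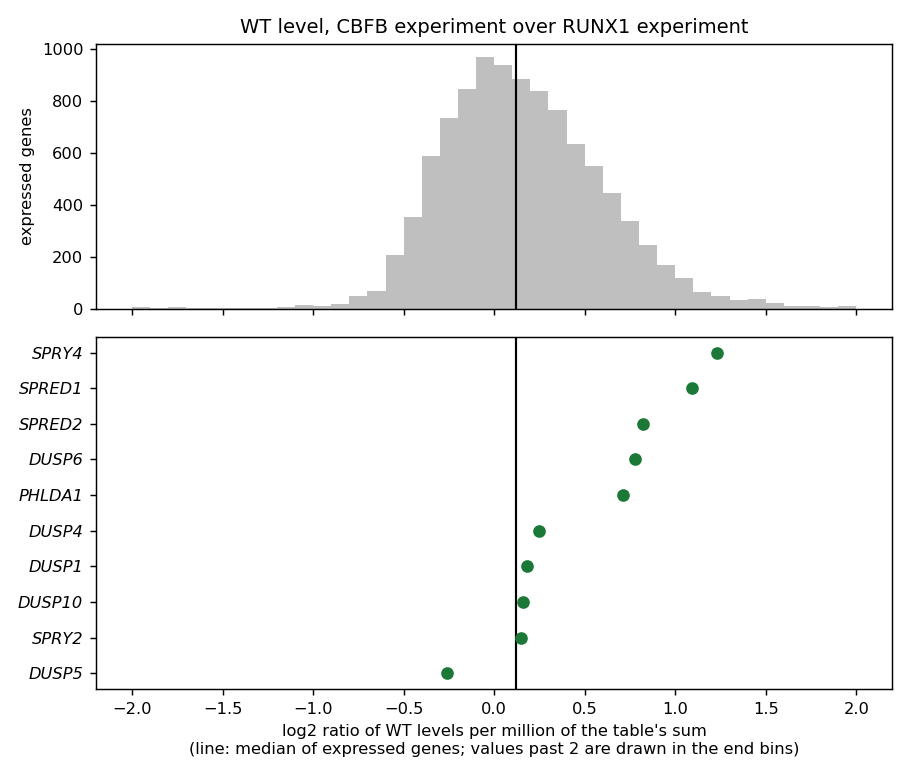
Log2 ratio of the WT level in the CBFB experiment to that in the RUNX1 experiment (x axis, levels scaled to 1000000 per table) for 10053 expressed genes as a histogram (above, number of genes) and for the 10 genes (below), with a line at the median of expressed genes, 0.12. SPRY4, SPRED1, SPRED2, DUSP6 and PHLDA1 lie well right of the line and DUSP5 lies left of it. WT levels of the RUNX1 experiment are those of the KO1 comparison.

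The other genes of these families and of the pathway were counted from lists, and each count is to be read beside the shares of all genes, which were 11.7% up and 7.97% down (CBFB KO), 19.7% up and 19.9% down (KO1), and 8.76% up and 6.08% down (KO2). Of 5 other MAP kinase phosphatases, 1 rose and 2 fell in CBFB KO, 3 rose and 1 fell in KO1, and none rose and 1 fell in KO2. DUSP9, a cytoplasmic phosphatase that acts on ERK, fell in all 3, by 0.87 (SE 0.23, adjusted p = 0.00215), 1.13 (SE 0.16, adjusted p = 1.07e-11) and 0.76 (SE 0.19, adjusted p = 8.82e-04) on the log2 scale, at means of 75.1, 95.9 and 100. DUSP9 thus moved with DUSP1 and against DUSP5 and DUSP6 in CBFB KO, and against DUSP6, DUSP4 and DUSP10 in KO1. DUSP7, at a mean of 3854 in the CBFB table, rose by 0.48 in CBFB KO (SE 0.10, adjusted p = 1.95e-05). It also rose in KO1, at 0.44 (SE 0.07, adjusted p = 6.24e-10), and had 0.08 in KO2 (SE 0.23), short of the test. DUSP8 (0.49, adjusted p = 0.0150) and DUSP16 (0.35, adjusted p = 0.00122) rose in KO1, and DUSP2 fell in CBFB KO (-0.57, adjusted p = 0.0412). DUSP7, DUSP8, DUSP16 and DUSP2 were named after their values were seen. Of 5 other Sprouty, SPRED and PHLDA genes, 2 rose in CBFB KO, as did 2 in KO1 and 1 in KO2, while none fell. Those in CBFB KO were PHLDA2 (0.67, adjusted p = 3.26e-06) and PHLDA3 (0.42, adjusted p = 0.00113), both named after their values were seen. In KO1 they were PHLDA2 (0.30, adjusted p = 0.0151) and SPRED3. SPRED3, at means of only 21.0 to 26.3, rose in KO1 (log2 fold change 1.23, SE 0.25, adjusted p = 5.67e-06) and KO2 (1.23, SE 0.28, adjusted p = 2.75e-04) and had 0.67 in CBFB KO (SE 0.29, adjusted p = 0.0933). Of 6 other inhibitors of receptors or RAF, none passed in CBFB KO, 2 rose and 1 fell in KO1, and 1 rose in KO2.

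Genes that ERK induces had members on both sides. Of the ERK-induced transcription factors tested, 2 rose and 3 fell of 13 in CBFB KO, 4 rose and 4 fell of 14 in KO1, and 2 rose and none fell of 14 in KO2, with median log2 fold changes of 0.02, -0.12 and -0.15. With lists this short, such counts are a description and no result about the list. IER2 and JUNB, immediate-early genes named after their values were seen, rose in all 3 knockouts, with log2 fold changes of 0.72, 0.69 and 0.95 for IER2 and of 0.69, 0.64 and 0.79 for JUNB. FOS, named in the same way, fell by 0.67 in CBFB KO (adjusted p = 0.0332) and by 0.52 in KO1 (adjusted p = 0.0222). ETV5, an ETS factor of the PEA3 group often read together with SPRY4 and DUSP6, fell by 0.32 in CBFB KO (adjusted p = 0.0340) and by 0.34 in KO1 (adjusted p = 0.00809), where SPRY4 and DUSP6 rose; it too was named after its values were seen. Of 3 other ERK targets, 1 fell in CBFB KO and none passed in KO1 or KO2.

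Of the genes from the EGF receptor to ERK, 4 rose and 2 fell of 22 in CBFB KO, 9 rose and 2 fell of 22 in KO1, and 1 rose and 1 fell of 21 in KO2, beside 11.7% and 7.97%, 19.7% and 19.9%, and 8.76% and 6.08% of all genes. The list's medians were 0.05, 0.21 and 0.09. KSR1, a scaffold that holds RAF, MEK and ERK together, had log2 fold changes of 1.36 (CBFB KO, SE 0.26, adjusted p = 4.26e-06), 1.36 (KO1, SE 0.21, adjusted p = 1.71e-09) and 0.81 (KO2, SE 0.35, adjusted p = 0.114), at means of 31.9 to 57.6. EGFR, also named after its values were seen, passed in none, with log2 fold changes of -0.40, 0.14 and -0.20. Of 10 p38 and JNK kinases, 3 rose in CBFB KO, 2 rose and 1 fell in KO1, and 1 rose in KO2.

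**Figure D5:**
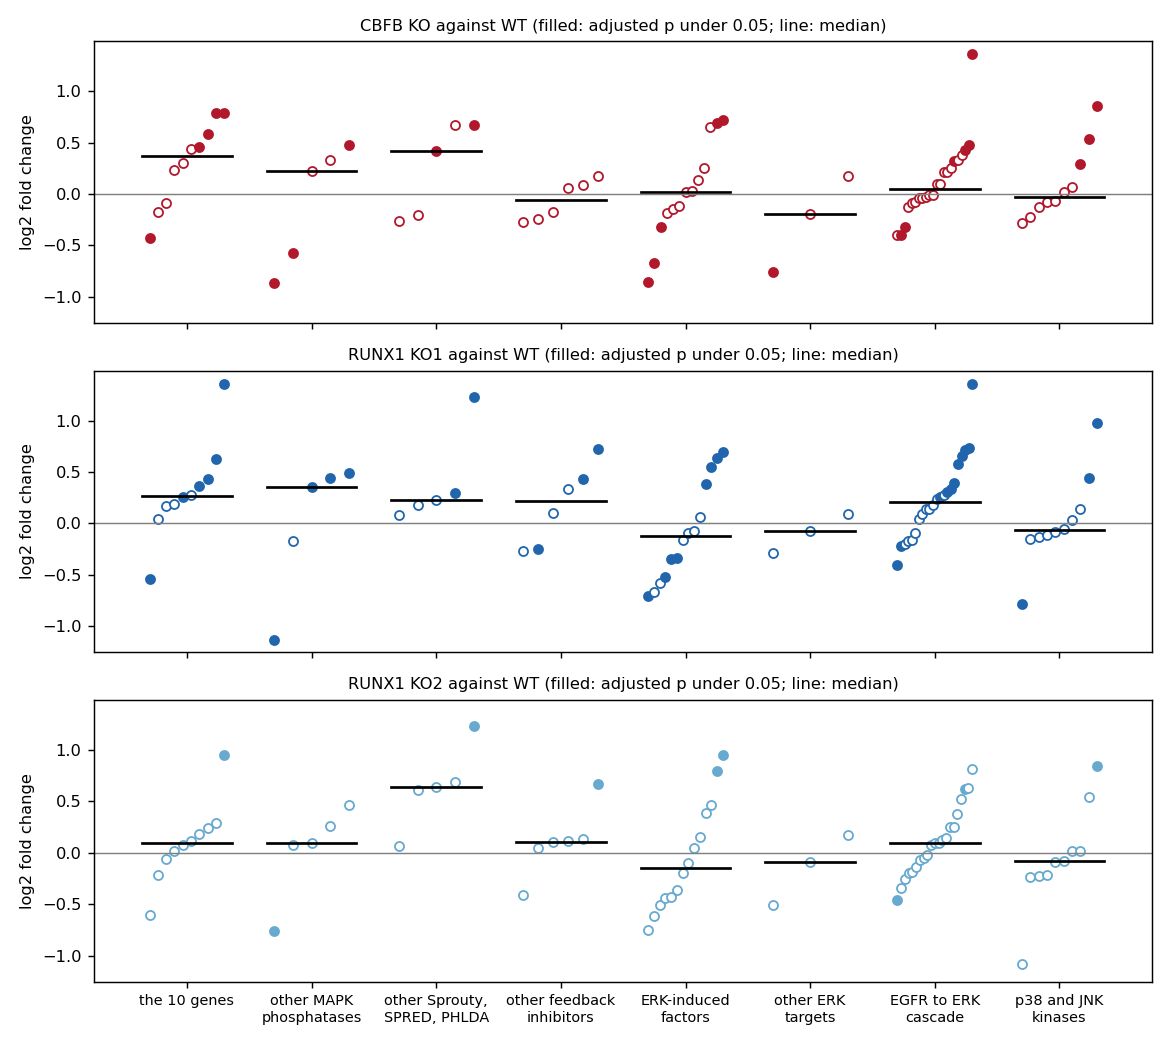
Log2 fold change (y axis, no unit) of every tested gene of the 10 genes and of 7 lists of the pathway in the 3 comparisons, with filled points for an adjusted p under 0.05 and a line at each list's median. The medians of the 10 genes are 0.37, 0.27 and 0.09, and the ERK-induced factors spread on both sides of 0 in each panel.

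The genes whose changes were nearest to those of SPRY4 over the 3 comparisons, by Euclidean distance of the log2 values among 10052 genes expressed at 100 or more in each table, were PEAR1 (distance 0.0866), DDX60L (0.141) and SEPTIN6 (0.171). These 3 genes were picked for values near those of SPRY4. Their rise in every knockout therefore follows from the choice and is no separate result. The 24 expressed genes nearest to each of the 10 genes on its chromosome were also examined. Their median log2 fold change lay between -0.10 and 0.08 for CBFB KO, -0.06 and 0.16 for KO1, and -0.15 and 0.12 for KO2. Copy number was not measured, and its part in the results was not tested.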

How the data were processed

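RNA of 18 MCF10A samples in 5 groups was sequenced, and groups were taken from the labels. The submitters' notes name Trimmomatic, STAR, DESeq2 and the build hg19, without versions, while the read counter and annotation are not given in the sources used here. The labels name a TruSeq mRNA kit and the methods removal of ribosomal RNA. The data were the authors' deposited DESeq2 tables of knockout against WT, 3 in number: the deposited mean of normalised counts (treated as a signal), the deposited log2 fold change (pulled toward 0 at low means), its SE, the deposited test score, and the authors' deposited p-values, two-sided and adjusted by Benjamini-Hochberg. With 0 columns of per-sample values, depth per library is unknown, and no value per replicate or SD could be given. Nothing says that the repeats were separate cultures, so p-values may measure technical spread only.

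Genes were joined by Entrez ID with Python 3.11.15 (pandas 2.3.3, numpy 2.4.6, scipy 1.17.1, matplotlib 3.10.9). WT and knockout levels were solved from the mean and fold change. Differences between knockouts were tested as the difference of log2 fold changes over the root of the summed squared SEs, two-sided normal, adjusted over all genes tested in both tables; the script was tested on simulated data. Transcript length and GC content came from GENCODE 29, and names, gene order and promoter windows from RefSeq GRCh38.p14, which is not the submitters' build. Expressed genes had a mean of at least 100. Alternatives were centring on the median, a trend on length and GC content removed, a mean of at least 10, no filter, the median of the 24 nearest expressed genes subtracted, and fold-change thresholds of 1.5 and 4. The genes and lists were chosen with earlier results of these data known. Beyond the 10 genes, those named were pathway list members past an adjusted p of 0.05 and a 2-fold change, marker genes in the check of cell types, the targeted genes, and the 3 genes nearest to SPRY4, which alone passed in 1 direction in all tables; others are said to be named after their values were seen.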

Additional observations from a re-analysis of the deposited data

Results flagged for a closer look

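For 2 of the 10 genes the change from WT differed between CBFB KO and a RUNX1 clone in the test of the difference itself. DUSP5 was 0.62 higher on the log2 scale in CBFB KO than in KO1 (SE 0.15, adjusted p = 0.00159) and 0.68 higher than in KO2 (SE 0.16, adjusted p = 0.00195). With the length and GC trend removed, the DUSP5 difference from KO1 was 0.46 (adjusted p = 0.0393). DUSP1 differed by -0.71 between CBFB KO and KO1 (SE 0.20, adjusted p = 0.0108). In this test 2 of the 10 genes differed between CBFB KO and KO1, beside 9.84% of all genes. Between CBFB KO and KO2 it was 1 of the 10, beside 2.90% of all genes. With 10 genes, these counts are a description only. The experiment cannot be told apart from the gene disrupted.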

How the results depend on the processing

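No paired analysis was possible because the tables hold no value per library, and for the same reason leaving out each replicate was not run. The counts of the 10 genes past the adjusted threshold stayed within 1.5 times of the values given under centring, trend removal, both filters and subtraction of neighbours. At a fold-change threshold of 1.5 in place of 2, the study's rule called 2 genes (CBFB KO), 2 (KO1) and 1 (KO2), and at 4 it called 0 in KO1. The shares of all genes at these thresholds are not given here, so these counts are a description only. Signs turned only for values near 0 that passed no test, and the cause was not tested. After removal of the length and GC trend, SPRED1 in KO1 was -0.09, DUSP4 in KO2 -0.02, the SPRED1 difference of CBFB KO from KO1 0.07 and the DUSP1 difference of KO1 from KO2 0.21. With neighbours subtracted, SPRED1 in KO1 was 0.00, DUSP5 in KO2 -0.01, SPRED2 in KO2 0.09, the DUSP4 difference of CBFB KO from KO1 -0.02, and the KO1 difference from KO2 was 0.03 for DUSP1 and -0.08 for SPRY2. Centring gave 0.01 for the DUSP1 difference of KO1 from KO2. Of the 10 genes' values past the adjusted threshold none lost it under the alternatives run, although DUSP4, DUSP6 and PHLDA1 in KO1 shrank by over 1.5 times under 1 or 2 of them.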
